A study of Mus musculus with 60 samples.

Results

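Syntrophins and dystrobrevins are adaptor proteins of the dystrophin-associated complex, and the genes described here are Sntb1, Sntb2, Sntg1, Sntg2, Dtna and Dtnb. They were followed through every peak that carried one of these symbols in 12 lists of CUT&RUN peaks from mouse hippocampus. The 6 genes took 314 of 256375 peaks, of which 267 of 155961 belonged to H4K8ac and 47 of 100414 to H3K27me3. In all, 16994 gene symbols had a peak in at least 1 list.

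Male Emx1-NuTRAP mice, in which Cre from the Emx1 locus turns on a nuclear tag, either had running wheels from postnatal day 21 to 41 (exercised) or were kept in standard cages over the same days (sedentary). Emx1-driven Cre acts mainly in excitatory forebrain neurons and also in neural progenitors, so the tagged nuclei need not be neurons alone. Nuclei came from the simultaneous isolation of nuclei and translated RNA (SIT, bilateral hippocampus, 4 samples per antibody and condition) or from separate isolations of the left or the right side (3 samples each), and those 2 sides came from different mice. Aliquots of the nuclei were incubated with antibodies to H4K8ac, H3K27me3 or IgG, and each of the 12 lists pools libraries of 1 mark, condition and arm. Exercised H4K8ac libraries of both kinds of isolation, most of them from separate isolations, were dropped by the authors for a high false discovery rate. The exercised H4K8ac lists may therefore rest on fewer libraries than samples. A figure caption of the study also names fewer SIT mice than samples for sedentary CUT&RUN data, so the sedentary SIT lists may too. Being pooled, a list counts once, carries no SD, and gives peak positions without read counts, so the depth behind each peak is unknown.

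The H4K8ac lists held 38136 peaks (exercised) and 30358 peaks (sedentary) in SIT, 12168 and 36425 in the left arm, and 13715 and 25159 in the right arm. The H3K27me3 lists held 25693 and 10279 peaks in SIT, 18262 and 14491 in the left arm, and 9899 and 21790 in the right arm. The exercised left and right H4K8ac lists were the shortest of that mark. Counts below are to be read beside these list lengths. The part of list length, or of the dropped libraries, in each difference was not tested. Of 6 markers per cell type, excitatory neuron markers had an H4K8ac peak within 3 kb of a start site (a promoter peak) for 2 to 4 genes per list, inhibitory neuron markers for 0 to 1, astrocyte markers for 0 to 3, and oligodendrocyte markers for 1 to 2. Microglial markers had such peaks for 1 to 2 genes and endothelial markers for 0 to 2. Counting any H4K8ac peak, as is done for the genes below, excitatory markers reached 4 to 6 genes per list, astrocyte markers 1 to 6 and inhibitory markers 2 to 3.

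Syntrophins carry a PDZ domain with which they hold channels, receptors and signalling enzymes at the membrane, and they bind directly to dystrophin, utrophin and the dystrobrevins. Sntb1 and Sntb2 encode the beta syntrophins, Sntg1 and Sntg2 the gamma syntrophins, which are known from brain, and Dtna and Dtnb encode alpha- and beta-dystrobrevin, dystrophin-related proteins that bind syntrophins in turn. In brain the complex is known from inhibitory synapses and from the astrocyte endfeet around blood vessels. H4K8ac is an acetyl mark of active promoters and enhancers, and H3K27me3 is the methyl mark that Polycomb complexes place at silenced genes.

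In the GRCm38 (mm10) assembly with GENCODE M21 gene models, Sntb1 lies at chr15:55636388-55906949 on the minus strand (ENSMUSG00000060429) and Sntb2 at chr8:106935750-107019714 on the plus strand (ENSMUSG00000041308). Sntg1 lies at chr1:8361475-9299878 (minus, ENSMUSG00000025909) and Sntg2 at chr12:30174482-30373375 (minus, ENSMUSG00000020672). Dtnb lies at chr12:3572381-3781796 (plus, ENSMUSG00000071454). The genes span 84.0 kb (Sntb2) to 938 kb (Sntg1), and start sites below are the outer 5′ ends of these models.

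Sequences are shown for some of the places where peaks of most lists met, each of which is described below. Other such places, among them an upstream position of Dtna with peaks in 6 lists, are not shown. The promoters of Sntg2 and Dtnb, which had H4K8ac near the start site in 3 lists and in 0 lists, are added. Each sequence is 300 bases of GRCm38.p6 from RefSeq, read 5′ to 3′ on the strand of its gene, with CpG dinucleotides in capitals. The first lies in intron 1 of Sntb2 (chr8:106972273-106972572) under H4K8ac in 5 lists. The second lies upstream of the Sntb1 start site (chr15:55908848-55909147) under H3K27me3 in 6 lists. The third lies in intron 2 of Sntg1 (chr1:9158364-9158663) and the fourth in intron 8 of Dtnb (chr12:3675166-3675465), each under H4K8ac in 5 lists. The promoters (Sntg2 at chr12:30373327-30373626, Dtnb at chr12:3572141-3572440) run from 250 bases before to 50 bases after a start site, and the table of promoters held entries for 2 of the 6 genes.
Sntb2 intron 1: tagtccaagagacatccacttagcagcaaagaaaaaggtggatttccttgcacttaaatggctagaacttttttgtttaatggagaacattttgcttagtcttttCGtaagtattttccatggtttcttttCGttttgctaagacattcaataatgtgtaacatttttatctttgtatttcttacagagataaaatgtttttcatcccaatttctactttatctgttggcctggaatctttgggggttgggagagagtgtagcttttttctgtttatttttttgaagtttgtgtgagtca
Sntb1 upstream: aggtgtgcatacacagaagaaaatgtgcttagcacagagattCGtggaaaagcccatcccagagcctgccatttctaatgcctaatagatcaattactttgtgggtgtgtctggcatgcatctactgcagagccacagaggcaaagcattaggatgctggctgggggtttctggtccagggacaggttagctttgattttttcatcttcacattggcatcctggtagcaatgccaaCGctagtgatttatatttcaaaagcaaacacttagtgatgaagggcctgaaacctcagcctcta
Sntg1 intron 2: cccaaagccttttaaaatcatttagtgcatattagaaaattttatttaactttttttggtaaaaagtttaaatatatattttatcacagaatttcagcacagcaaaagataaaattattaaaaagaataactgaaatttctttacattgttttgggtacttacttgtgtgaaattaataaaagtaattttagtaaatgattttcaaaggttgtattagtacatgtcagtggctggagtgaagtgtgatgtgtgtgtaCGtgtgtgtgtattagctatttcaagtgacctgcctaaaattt
Dtnb intron 8: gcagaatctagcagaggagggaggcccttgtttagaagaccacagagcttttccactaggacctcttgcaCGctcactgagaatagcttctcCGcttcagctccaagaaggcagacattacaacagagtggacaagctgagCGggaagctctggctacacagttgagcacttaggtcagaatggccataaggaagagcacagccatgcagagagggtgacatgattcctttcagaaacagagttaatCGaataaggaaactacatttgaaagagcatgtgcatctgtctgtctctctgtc
Sntg2 promoter: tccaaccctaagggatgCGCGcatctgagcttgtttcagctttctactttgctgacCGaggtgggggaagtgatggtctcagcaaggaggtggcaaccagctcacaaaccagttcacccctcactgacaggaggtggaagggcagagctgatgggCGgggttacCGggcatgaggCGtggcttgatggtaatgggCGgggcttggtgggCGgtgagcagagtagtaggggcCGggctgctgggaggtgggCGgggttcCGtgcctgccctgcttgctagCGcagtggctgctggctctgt
Dtnb promoter: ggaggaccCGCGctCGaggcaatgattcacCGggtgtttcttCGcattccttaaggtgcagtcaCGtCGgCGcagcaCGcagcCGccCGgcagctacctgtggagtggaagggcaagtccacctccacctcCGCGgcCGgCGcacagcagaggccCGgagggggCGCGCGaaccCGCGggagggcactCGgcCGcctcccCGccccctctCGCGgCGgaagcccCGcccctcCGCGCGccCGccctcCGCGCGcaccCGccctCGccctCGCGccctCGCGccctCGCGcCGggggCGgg

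These sequences differed in CpG content. The Sntb2 intron 1 stretch had 2 CpG and 33.3% G+C, the Sntg1 intron 2 stretch 1 CpG and 27% G+C, and the Dtnb intron 8 stretch 4 CpG and 48.3% G+C, where the 300-base centres of the 38136 H4K8ac peaks of the exercised SIT list had a median of 3 CpG and 44.7% G+C. The stretch upstream of Sntb1 had 2 CpG and 45.7% G+C, against a median of 3 CpG and 44.3% G+C at the centres of 25692 H3K27me3 peaks of the exercised SIT list. The Sntg2 promoter had 12 CpG and the Dtnb promoter 45, against a median of 7 over 32841 promoters, whose 90th percentile was 31. Searched on both strands, the AP-1 motif TGANTCA was found once in the Sntb2 stretch and once in the Dtnb promoter, and was present in 10.2% of the H4K8ac centres and 7.81% of the promoters. The E-box CAGATG was found once in the Dtnb intron stretch and once in the Sntg2 promoter, and in 23.9% of the H4K8ac centres and 17.2% of the promoters. The cAMP response element TGACGTCA was in none of the 6 stretches and in 0.344% of the H4K8ac centres. A match is a description of the letters in the window.

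The 6 genes divided by mark. Sntb2, Sntg1, Sntg2, Dtna and Dtnb had H4K8ac in 6 of 6 lists and H3K27me3 in 0 of 6, a combination found for 2334 of 16994 genes (13.7%). Sntb1 had H3K27me3 in 6 of 6 lists and H4K8ac in 2 of 6. A gene was listed in all 6 H4K8ac lists in 19.3% of cases and in all 6 H3K27me3 lists in 16.5%. No peak of the 6 genes overlapped a peak of the other mark from the same arm and condition, but such overlap was rare, at 0.117 to 0.700% of all H4K8ac peaks and 0.0876 to 1.004% of all H3K27me3 peaks of a list.

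Covered length, the summed width of a gene's peaks in a list, gave the size of this division. Over the 6 lists of H4K8ac it was 5.33 kb ± 3.99 (SD over lists) for Sntb2, 15.6 kb ± 10.5 for Sntg1, 12.3 kb ± 8.47 for Sntg2, 33.3 kb ± 12.7 for Dtna and 14.5 kb ± 9.80 for Dtnb. The H3K27me3 length was 0 for each of them in each list. Sntb1 covered 0.739 kb ± 1.31 with H4K8ac and 27.2 kb ± 15.8 with H3K27me3.

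H4K8ac was longer in 6 of 6 pairs of lists of the same arm and condition for those 5 genes, and H3K27me3 in 6 of 6 pairs for Sntb1. The direction for Sntb1 came from peaks upstream of the gene. Over the gene body alone its H4K8ac was the longer in 3 pairs and its H3K27me3 in 2, with a mean difference (H4K8ac minus H3K27me3) of 0.981 kb. By assigned peaks each of the 6 genes reached the smallest p possible when the signs of 6 pairs are flipped (exact permutation test, two-sided), p = 0.0313, with an adjusted p of 0.100 (Benjamini-Hochberg over 16994 genes). For the 5 genes without H3K27me3 this p was fixed by their listing in 6 of 6 H4K8ac lists and adds nothing to it. None of the 16994 genes passed an adjusted p of 0.05 in this design (0%). At an unadjusted p under 0.05, 16.1% of all genes had longer H4K8ac and 15.2% longer H3K27me3. The median difference (H4K8ac minus H3K27me3) was 13.4 kb over the 6 genes and 0.420 kb over all genes. Neither value is scaled to gene length, which was 84.0 to 938 kb for the 6 genes, and shares of the gene body are given below.

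**Figure D1:**
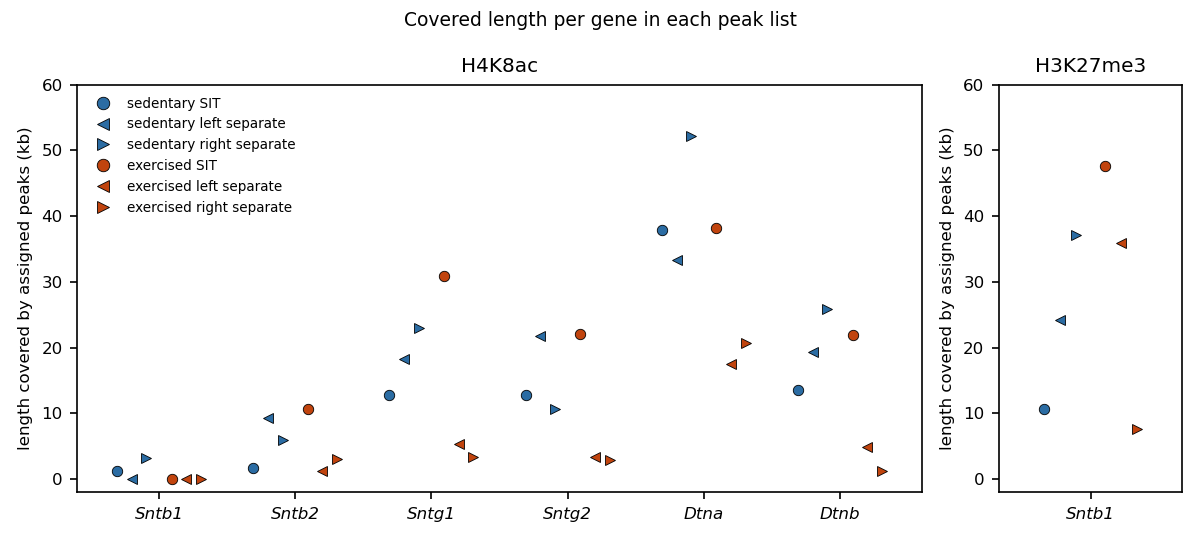
Covered length in kb (vertical axis) of the peaks assigned to each gene (horizontal axis) in each list, for H4K8ac at left and H3K27me3 at right, where Sntb1 alone had peaks. Each point is 1 list, blue for sedentary and red for exercised, with the arm given by the symbol; for Sntg1, Sntg2, Dtna and Dtnb the exercised left and right points lie below every other list of the gene.

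Sntb2, the beta-2 syntrophin gene, had few H4K8ac peaks. The exercised lists held 5 peaks covering 10.7 kb (SIT), 1 peak of 1.28 kb (left) and 1 peak of 3.01 kb (right). The sedentary lists held 2 peaks covering 1.69 kb (SIT), 5 peaks covering 9.27 kb (left) and 3 peaks covering 6.01 kb (right). The exercised list was thus the longer in SIT and the shorter in both separate arms, so the ranges of the conditions overlapped. The mean difference was -0.665 kb ± 8.73 (SD, 3 arms; two-sided exact permutation of signs, p = 1, adjusted p = 1), in a design whose smallest p is 0.25. Its sign was not stable, being 2.998 kb without the left arm, 0.503 kb without the right arm, 0.357 kb over the gene body and 7.13 bp per 1000000 bp of list.

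By position, 5 of the 17 H4K8ac peaks of Sntb2, each from another list, met in intron 1 at chr8:106970327-106974573, centred 36.7 kb past the start site, and shared the 1085 bp from 106971880 to 106972964. Their widths were 3066, 1279 and 3012 bp in the exercised SIT, left and right lists and 2288 and 2439 bp in the sedentary left and right lists. The sedentary SIT list had no peak there. In SIT this intron 1 position was therefore marked in the exercised list alone, while in the left and right arms it was marked in both conditions. Peaks in the exercised SIT list alone were common, as 43.9% of all 38136 exercised SIT peaks overlapped a sedentary SIT peak.

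The second position in intron 1, chr8:106978145-106980441 and 43.5 kb past the start site, had peaks of 1482, 2177 and 1405 bp in the exercised SIT, sedentary left and sedentary right lists. The sedentary SIT list instead held a peak of 770 bp in intron 1 at chr8:106961027-106961796, which no other list shared, and a peak of 921 bp upstream. Of all 8 regions in which Sntb2 peaks of any list were merged, 1 (12.5%) had a peak in 5 lists, where 12.7% of all 63514 H4K8ac regions had a peak in 5 or 6 lists.

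Assignment to the nearest start site shaped the Sntb2 counts. Of 17 peaks given the Sntb2 symbol, 7 lay outside the gene, between 1.94 and 19.9 kb upstream of it: 4 in Utp4, the neighbouring gene, 2 over the pseudogene Rpl10-ps2, and 1 between genes. A further 8 peaks inside Sntb2 carried the symbol of Vps4a, a gene downstream whose start site was nearer. Among them was an intron 2 position, chr8:106983403-106986869, with peaks in the exercised SIT, exercised left, sedentary SIT and sedentary right lists. Counted over the gene body, Sntb2 had 4, 2 and 2 peaks in the exercised SIT, left and right lists and 2, 5 and 3 in the sedentary ones.

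No list had a peak of H4K8ac over the Sntb2 start site. The nearest peak lay 1.94 to 29.2 kb away, and 1 list (sedentary left) had a peak within 3 kb. For comparison, 73.4% of 21727 protein-coding genes had no H4K8ac peak over the start site in any list, and 61.4% had none within 3 kb of it. H3K27me3 was farther off, the nearest peak of a list being 262 to 300 kb from the Sntb2 start site.

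**Figure D2:**
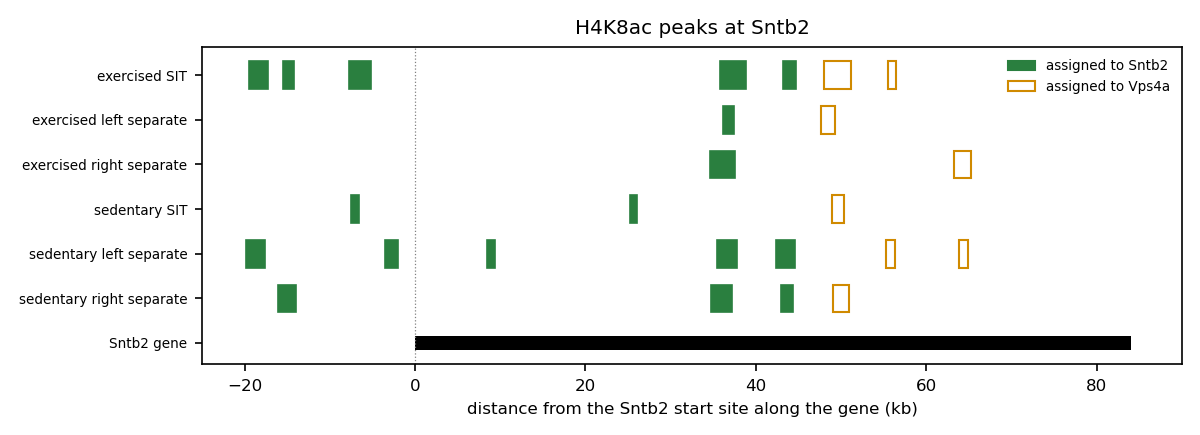
H4K8ac peaks at Sntb2 in the 6 lists (rows), by distance in kb from the start site along the gene; green bars were assigned to Sntb2, open bars to Vps4a, and the black bar is the gene. Near 37 kb, 5 of the 6 lists carry a peak and the sedentary SIT list does not; no bar crosses the start site.

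The genes whose covered lengths over the 12 lists were most like those of Sntb2 were Prkca, which encodes protein kinase C alpha (Pearson r = 0.997), Galnt7 (0.991), Ifrd1 (0.991), E330017L17Rik (0.989) and Mysm1 (0.989), out of 12510 genes with a peak in at least 3 lists. Prkca covered 25.1, 3.14 and 5.86 kb in the exercised SIT, left and right H4K8ac lists and 3.45, 23.2 and 16.3 kb in the sedentary ones, and had no H3K27me3. Like Sntb2, each of the 5 genes had no H3K27me3, so 6 of the 12 values behind each r were 0 for both genes. Likeness of this kind was common, the median r over all genes being 0.575, and Sntb2 itself followed the total length of the H4K8ac lists (r = 0.902, 6 lists). Of the other members Sntg2 (r = 0.934) and Sntg1 (0.926) came nearest, and Sntb1 had r = -0.571.

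Sntb1, the beta-1 syntrophin gene, was the member with H3K27me3. A promoter peak was present in 6 of 6 lists, 5102, 7533 and 2049 bp wide in the exercised SIT, left and right lists and 3940, 4588 and 6910 bp wide in the sedentary ones. All shared the 1347 bp at chr15:55908324-55909670, and 4 of the 6 ran over the start site, while those of the exercised right and sedentary SIT lists ended 0.673 and 1.38 kb upstream of it. In all, 6.69% of 21727 protein-coding genes had an H3K27me3 peak within 3 kb of the start site in 6 lists.

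Most H3K27me3 given to Sntb1 lay far upstream. Of its 47 peaks, 39 were distal intergenic, the farthest 297 kb from the start site. Positions at chr15:56075107-56079822 (171 kb upstream) and chr15:56099772-56108216 (197 kb upstream) had peaks in 6 of 6 lists, and together with the promoter they were 3 of 14 merged regions (21.4%) in 5 or 6 lists, against 25.5% of all 27261 H3K27me3 regions. Distal intergenic peaks made up 83.0% of the Sntb1 peaks and 45.3% of all H3K27me3 peaks.

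In the exercised lists the H3K27me3 of Sntb1 came to 16 peaks covering 47.7 kb (SIT), 8 covering 35.9 kb (left) and 4 covering 7.67 kb (right), and in the sedentary lists to 3 covering 10.7 kb, 7 covering 24.2 kb and 9 covering 37.2 kb. The conditions overlapped, being longer with exercise in SIT and the left arm and shorter in the right arm. The mean difference was 6.37 kb ± 33.5 (SD, 3 arms; two-sided exact permutation of signs, p = 0.75, adjusted p = 1). Without distal intergenic peaks it was -2.05 kb, and without the SIT arm -8.899 kb. The ratio of exercised to sedentary peaks was 5.33 (SIT), 1.14 (left) and 0.444 (right), where the whole lists had ratios of 2.50, 1.26 and 0.454. A position 159 kb upstream, chr15:56062577-56069628, had peaks in the 3 exercised lists and in no sedentary list, as 0.125% of all 27261 H3K27me3 regions had. It was 1 of the 14 Sntb1 regions and was picked out after its values were seen.

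H4K8ac at Sntb1 was sparse. By assigned symbol it had 1 peak of 1.22 kb in the sedentary SIT list and 2 peaks covering 3.21 kb in the sedentary right list, and 0 peaks in the sedentary left list and in each exercised list. The 2 lists shared an intron 2 position at chr15:55779610-55780833. This made Sntb1 the only member lost with exercise, in SIT and in the right arm. Inside the gene, however, a further 4 H4K8ac peaks carried the symbol of Mtbp, whose start site was nearer: 2 in the exercised SIT list, 1 in the sedentary SIT list and 1 in the sedentary right list, in introns 3 and 4. Counted over the gene body, Sntb1 had H4K8ac in both SIT lists and was shared in that arm, and only the right arm kept the loss. With the right lists reduced to equal numbers of peaks, Sntb1 was not lost there either. The nearest H4K8ac peak of any list lay 53.0 kb from the Sntb1 start site.

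**Figure D3:**
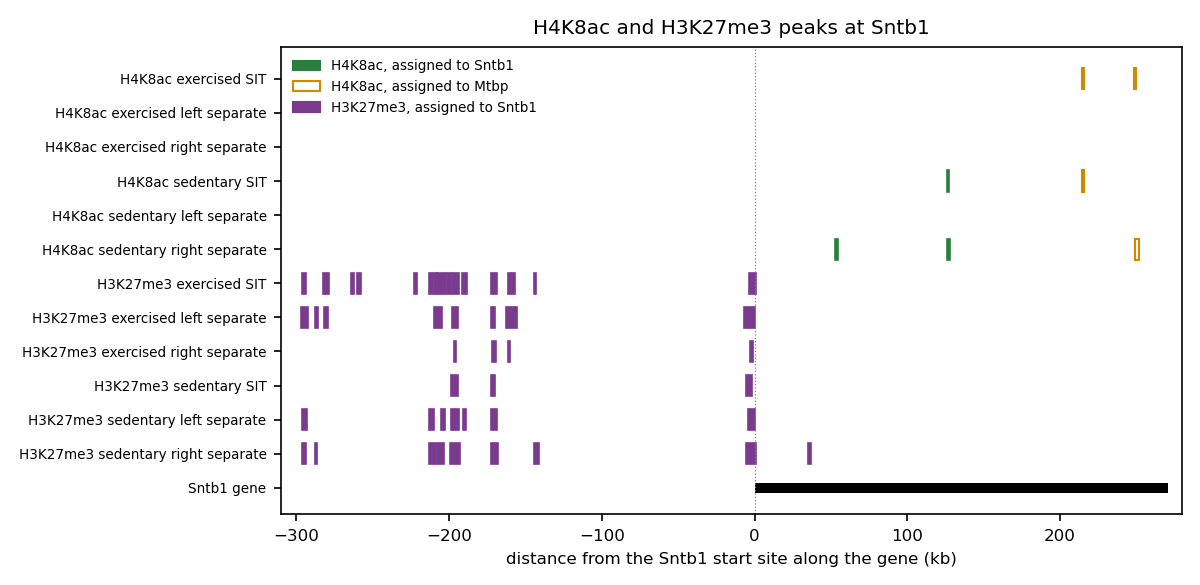
H4K8ac (upper 6 rows) and H3K27me3 (lower 6 rows) peaks at Sntb1, by distance in kb from the start site along the gene; green and purple bars were assigned to Sntb1, open bars to Mtbp, and the black bar is the gene. Purple bars stand over or within 1.38 kb of the start site and near 171 and 197 kb upstream in each of the 6 H3K27me3 rows, and the H4K8ac rows hold few bars, each inside the gene.

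Sntg1, the gamma-1 syntrophin gene, had 15, 3 and 2 H4K8ac peaks in the exercised SIT, left and right lists, covering 30.9, 5.39 and 3.45 kb. The sedentary lists had 8, 12 and 10 peaks, covering 12.9, 18.3 and 23.0 kb. The exercised list was the longer in SIT and the shorter in the other arms. A peak over the start site was present in the exercised SIT list (2681 bp) and in sedentary SIT, left and right (1925, 1976 and 2959 bp), and absent from the exercised left and right lists. The start site lay inside an H4K8ac peak in 4 or more lists for 5.82% of protein-coding genes.

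In intron 2 of Sntg1, 142 kb past the start site, peaks of 5 lists met at chr1:9156370-9159800, and all but the sedentary SIT list had one. The intron 1 position of Sntb2 had the same set of lists, and each was the region of its gene with peaks in the most lists. Of all 63514 H4K8ac regions 6.74% had peaks in exactly 5 lists, and the share with this set was not counted. The match was seen after the values were known. The Sntg1 peaks were 2640, 1979 and 1522 bp wide in the exercised SIT, left and right lists and 2276 and 2423 bp wide in the sedentary left and right lists. This position was 1 of 28 merged regions of Sntg1 (3.57%), and 16 of the 28 were seen in 1 list.

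Sntg2, the gamma-2 syntrophin gene, had 11, 2 and 2 H4K8ac peaks in the exercised SIT, left and right lists, covering 22.1, 3.32 and 2.88 kb, and 9, 12 and 5 peaks in the sedentary ones, covering 12.8, 21.8 and 10.7 kb. At its start site, whose promoter sequence is shown above, peaks lay over the site in the exercised SIT (1241 bp) and sedentary left (910 bp) lists, and the sedentary SIT list had a peak of 1398 bp that began 0.026 kb inside the gene. None of its 15 merged regions had peaks in 5 or 6 lists. An internal position, chr12:30199086-30203515, near the start of a shorter transcript, had peaks in 4 lists, of 4149 bp in the exercised SIT list and 1834, 1769 and 1321 bp in sedentary SIT, left and right.

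Dtna, the alpha-dystrobrevin gene (chr18:23415135-23659715, plus strand, ENSMUSG00000024302), held the most H4K8ac of the 6 genes, 116 of 267 peaks. The exercised lists had 21, 9 and 12 peaks in SIT, left and right, covering 38.1, 17.6 and 20.7 kb, and the sedentary lists 25, 28 and 21 peaks covering 37.9, 33.3 and 52.1 kb. In SIT the lengths differed by 0.282 kb, and in the left and right arms the exercised list was the shorter. Upstream of the gene lay 37 peaks, out to 98.6 kb, and 1 upstream position 19.4 kb from the start site had peaks in 6 of 6 lists, sharing 1306 bp. In all 7 of its 46 merged regions (15.2%) were in 5 or 6 lists. H4K8ac within 3 kb of the start site was present in 4 lists and absent from the exercised left and right lists.

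Dtnb, the beta-dystrobrevin gene, had 10, 2 and 1 H4K8ac peaks in the exercised SIT, left and right lists, covering 21.9, 4.83 and 1.22 kb, and 10, 8 and 9 peaks in the sedentary ones, covering 13.6, 19.3 and 25.9 kb. In intron 8, 103 kb past the start site, the region chr12:3672989-3676870 had a peak in 6 of 6 lists, 3867, 3310 and 1223 bp wide in the exercised lists and 1217, 3802 and 2699 bp wide in sedentary SIT, left and right. The exercised right and sedentary SIT peaks did not overlap each other, so at most 5 lists shared a base. At the outer start site, where the CpG-rich promoter shown above lies, no list had a peak within 3 kb, and the nearest lay 8.24 to 101 kb away. The 10 promoter-class peaks of Dtnb were beside start sites of transcripts inside the gene.

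**Figure D4:**
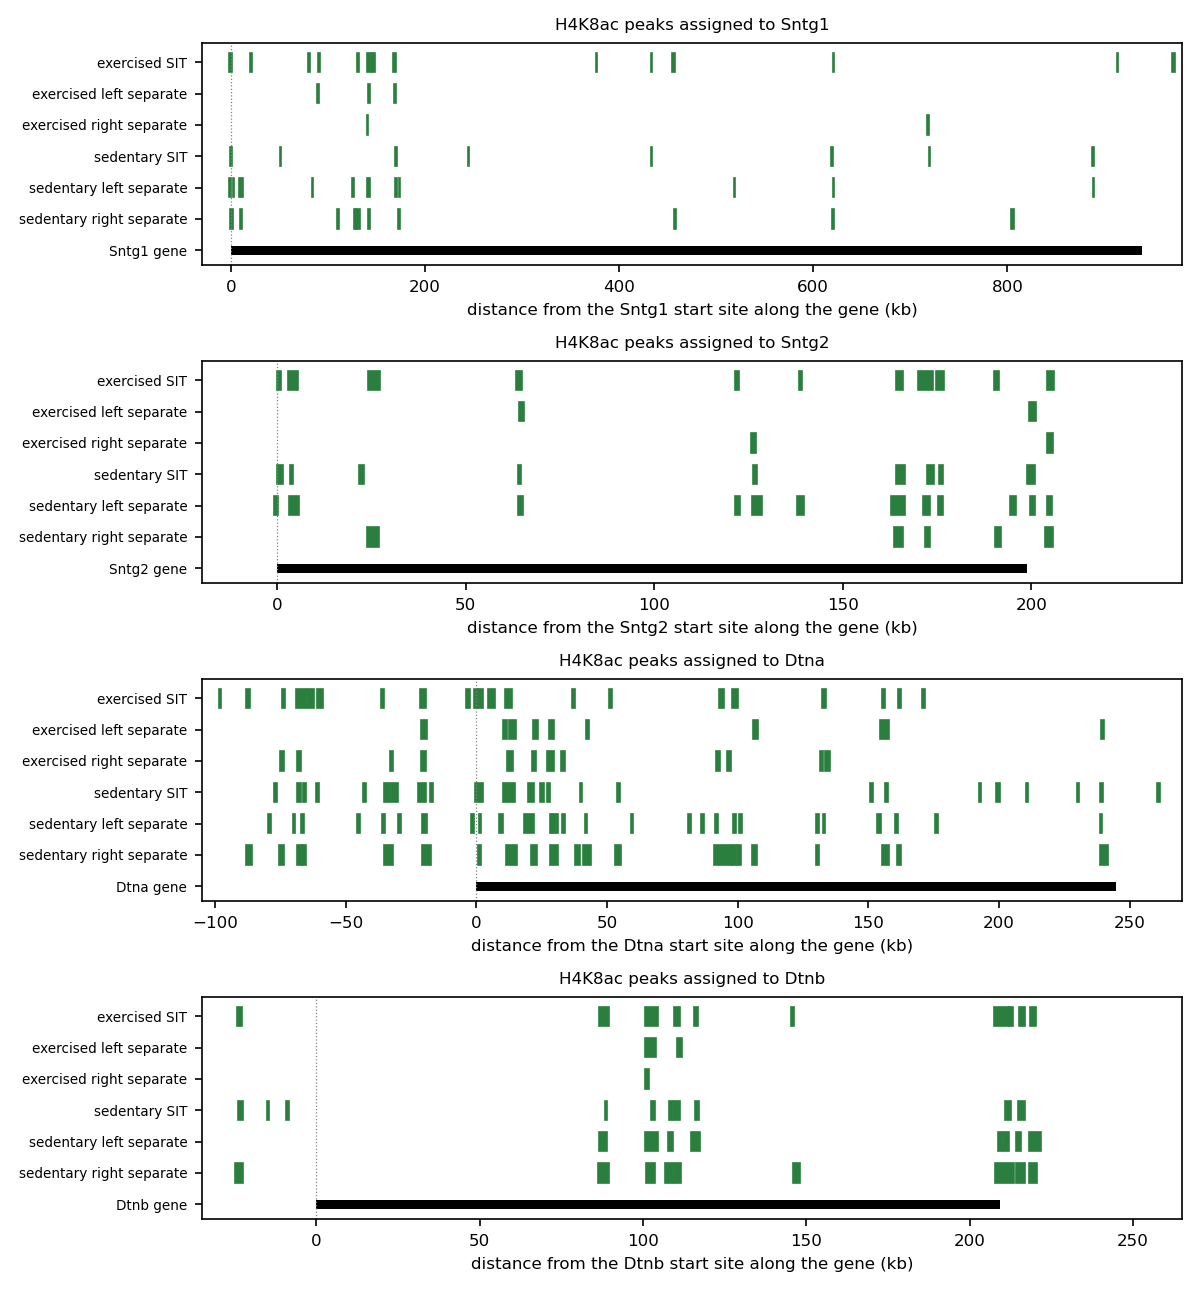
H4K8ac peaks (green bars) assigned to Sntg1, Sntg2, Dtna and Dtnb in the 6 lists (rows), by distance in kb from each start site along the gene, with the gene as a black bar and a scale for each panel. Bars are few in the exercised left and right rows; in Dtnb a bar stands near 103 kb in each of the 6 rows and none at the start site, and in Dtna bars stand near 19 kb upstream in each row.

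The genes differ in length, so levels were compared per length. The measure was the share of the gene body under H4K8ac divided by the same share over all protein-coding genes of the list. Dtna lay above all genes in 6 of 6 lists (ratios 1.83 to 5.16, median 3.82) and so did Sntb2 (1.03 to 4.27, median 2.33). Sntg2 lay above in 4 lists (0.434 to 2.42) and Dtnb in 5 (0.419 to 2.24). Sntg1 lay below in 6 of 6 lists (0.264 to 0.770) and Sntb1 likewise (0 to 0.694). For Sntb2 the gene body was covered to 10.2, 3.50 and 5.95% in the exercised SIT, left and right lists and to 2.59, 8.92 and 6.90% in the sedentary ones, and the ratio nearest 1 was that of the sedentary SIT list. The order by median was Dtna, Sntb2, Sntg2, Dtnb, Sntg1, Sntb1, and the ranges of Dtna, Sntb2, Sntg2 and Dtnb overlapped one another.

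**Figure D5:**
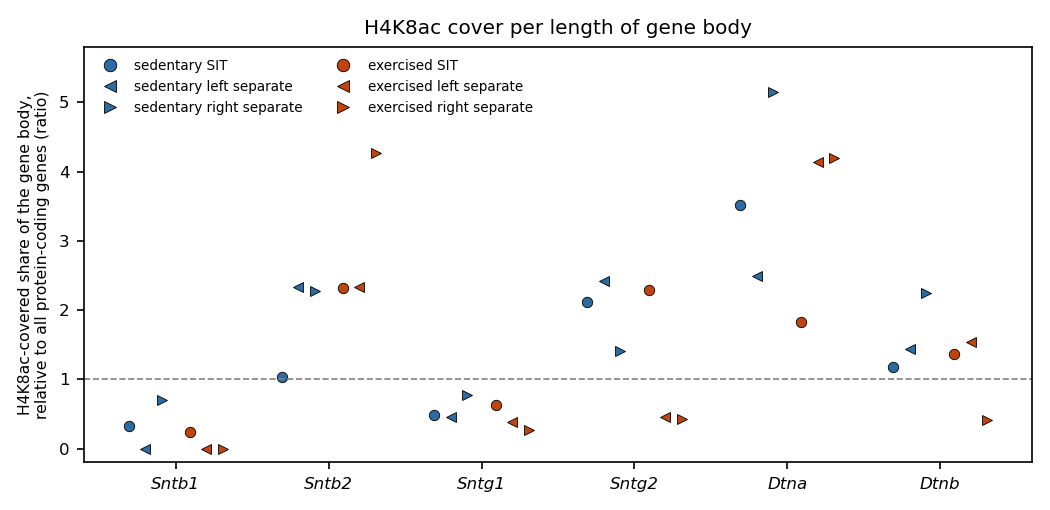
Share of each gene body covered by H4K8ac, as a ratio to the share over all protein-coding genes of the same list (vertical axis, dashed line at 1), for the 6 genes (horizontal axis). Each point is 1 list, blue for sedentary and red for exercised, with the arm given by the symbol; the points of Dtna and Sntb2 lie above 1 and those of Sntg1 and Sntb1 below it.

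The question of what exercise changed was then put to the lists gene by gene, a gene being gained if listed in the exercised list alone and lost if listed in the sedentary list alone. For H4K8ac no member was gained in any arm, where 27.5, 3.58 and 9.14% of listed genes were gained in SIT, left and right. Sntb1 was lost in SIT and in the right arm, where 10.1 and 36.7% of genes were lost, and no member was lost in the left arm, where 51.9% were. With lists of equal length 0 members were lost in the right arm, a setting for which no share of all genes was taken. Sntb2, Sntg1, Sntg2, Dtna and Dtnb were shared in each arm, against 62.4, 44.5 and 54.1% of genes. Restricted to the widest 50% of each list, Sntb2 was gained in SIT and lost in the left arm, where 29.6 and 56.3% of the genes then listed were gained and lost. Dtnb, in place of Sntb1, was then lost in the right arm, as 41.2% of genes were. By promoter peaks alone, 3 members were lost in the left arm and 4 in the right, where 62.9 and 45.1% of the genes with a promoter peak were lost.

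For H3K27me3, Sntb1 was shared in each arm and the other members had no peak. Of listed genes in SIT, 41.4% were gained, 1.02% lost and 57.5% shared. The left arm had 18.5, 9.13 and 72.4% in that order, and the right arm 3.12, 43.6 and 53.3%. In the widest 50% of each list Sntb1 was gained in SIT, as 47.1% of genes were.

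In covered length, Sntb2, Sntg1, Sntg2, Dtna and Dtnb each had longer H4K8ac in the exercised SIT list and shorter H4K8ac in both exercised separate lists, a pattern shown by 34.9% of 13585 genes. As a share of the total length of each list, Sntg1 alone of them kept this pattern. The mean differences over 3 arms were -4.79 kb ± 20.1 (SD) for Sntg1, -5.65 kb ± 14.0 for Sntg2, -15.6 kb ± 15.8 for Dtna, -10.3 kb ± 16.9 for Dtnb and -1.48 kb ± 1.62 for Sntb1. Each was smaller than the SD between arms, with adjusted p = 1 in the exact permutation of signs over all genes. The sign turned for Sntg1 without the right arm (2.59 kb) and for Sntg2 without the left arm (0.765 kb).

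Summed over the 6 genes, H4K8ac peak counts changed in the same direction as the whole lists in each arm. In SIT, Dtna (21 exercised and 25 sedentary peaks) and Sntb1 (0 and 1) went the other way, and Dtnb had 10 and 10. All 6 genes together had 62 exercised and 55 sedentary H4K8ac peaks in SIT (ratio 1.13, whole lists 1.26), 17 and 65 in the left arm (0.262, whole lists 0.334) and 18 and 50 in the right arm (0.360, whole lists 0.545). Of their exercised peaks 41.9, 70.6 and 72.2% overlapped a sedentary peak of the same arm in SIT, left and right, against 43.9, 73.1 and 68.0% of all exercised peaks. Of their sedentary peaks 47.3, 20 and 24% overlapped an exercised peak, below the 59.0, 25.2 and 35.6% of all sedentary peaks in each arm, a difference that was not tested. By class, 55.1% of the 267 H4K8ac peaks were intronic and 14.2% were promoter peaks, against 37.4 and 23.5% of all H4K8ac peaks.

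Among 28 other genes of the dystrophin-associated complex and its partners, 21 had H4K8ac in at least 1 list (79.9% of all 16994 genes did) and 9 in 6 lists (19.3%). H3K27me3 was present for 13 in at least 1 list (43.5%) and for 5 in 6 lists (16.5%), and 4 had neither mark. For H4K8ac 3 were gained and 4 lost in SIT (27.5 and 10.1% of all listed genes), 0 and 7 in the left arm (3.58 and 51.9%), and 1 and 5 in the right arm (9.14 and 36.7%). For H3K27me3 6 were gained and 0 lost in SIT (41.4 and 1.02%), 2 and 0 in the left arm (18.5 and 9.13%), and 1 and 6 in the right arm (3.12 and 43.6%). In the covered-length test of the marks 8 of 24 listed genes had longer H4K8ac and 3 longer H3K27me3 at an unadjusted p under 0.05 (16.1 and 15.2% of all genes), and none passed after adjustment.

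Genes of syntrophin partners differed in mark. Dmd, which encodes dystrophin, had 2 H4K8ac peaks in each of 3 lists (exercised SIT, sedentary SIT and sedentary right). Utrn, which encodes the dystrophin relative utrophin, had both marks in 6 of 6 lists. Its H4K8ac covered 16.0, 2.04 and 4.97 kb in the exercised SIT, left and right lists and 12.1, 8.66 and 14.9 kb in the sedentary ones. Its H3K27me3 covered 40.6, 13.1 and 6.73 kb and 10.1, 10.6 and 18.0 kb in the same order. Dag1, the dystroglycan gene, had neither mark in any list.

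Aqp4, the water channel of astrocyte endfeet that syntrophin anchors, also had both marks in 6 lists. Its H4K8ac covered 13.2, 7.81 and 7.85 kb in the exercised SIT, left and right lists and 14.8, 6.12 and 22.2 kb in the sedentary ones, and its H3K27me3 covered 4.95, 6.49 and 2.82 kb and 3.05, 3.43 and 4.98 kb in the same order. Sgcz, the zeta-sarcoglycan gene, had H3K27me3 in 6 lists (2.08 to 19.2 kb) and H4K8ac in 3.

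Ctnnal1, an alpha-catenin-like gene among the 28, had H4K8ac in each sedentary list and in no exercised list, so that it was lost in 3 of 3 arms, as 0.891% of 13585 genes were. Ctnnal1 was picked from the 28 because it had this pattern, so the share is not a test of it. It had 1, 1 and 2 peaks covering 1.10, 1.93 and 3.51 kb in sedentary SIT, left and right, with a promoter peak in each, and had no H3K27me3. No member was lost in all 3 arms, and none was shorter in the exercised list in all 3 arms, which 7.01% of genes were.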

How the data were processed

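CUT&RUN libraries of H4K8ac, H3K27me3 and IgG came from hippocampal nuclei, 60 samples in 18 groups by antibody, condition and arm as labelled. The 20 IgG samples are not analysed here. The authors aligned reads with Bowtie2 2.4.1 to mm10, called peaks with SEACR (stringent, threshold 0.01) and annotated them with ChIPseeker 1.8.6, with promoters reaching 3 kb to either side of a start site, and biomaRt supplied the symbols. Certain exercised H4K8ac libraries were dropped by the authors for a high false discovery rate. How libraries were joined into a list is not given in the sources used here. Per the file headers, the deposited tables give each peak's start, end and width in bp, its class and its distance to the nearest start site, with no count, signal or p-value, so depth is unknown and count tests could not be run. Peaks without a symbol (0.203 to 0.564% per list) were left out.

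A gene was listed if it had at least 1 peak. Covered length was the sum of peak widths. Peaks of 1 mark that overlapped by at least 1 bp in any lists were merged into a region. Exercise was tested over 3 arms and the marks over 6 pairs of lists with exact permutation tests (two-sided, by flipping signs) of every listed gene, Benjamini-Hochberg adjusted over all genes, with a threshold of 0.05 (Python 3.11.15, numpy 2.4.6, pandas 2.3.3). Functions were tested on simulated data. A p measures the spread between pooled lists, which need not be biological replicates. Alternatives were promoter peaks, no distal intergenic peaks, at least 2 peaks per gene, lists cut to equal numbers of peaks, the widest 50%, gene bodies with 3 kb flanks and, chosen after seeing the data, without flanks, shares of list length, peak numbers, leaving out an arm, and reciprocal overlap of 50%. The members and lists were chosen with earlier results of these data known, and Sntb2 is among the genes the study names. Genes named were the members, Dmd, Utrn, Dag1, Sgcz and Aqp4, any list gene gained or lost in 3 arms, and the 5 genes most like Sntb2. Some genes that this rule names are not reported here.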

Additional observations from a re-analysis of the deposited data

Results flagged for a closer look

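Exercised minus sedentary H4K8ac length took opposite directions in SIT and in the separate isolations for 5 of the 6 genes. Longer in SIT and shorter in both separate arms was the pattern of 34.9% of 13585 genes. For Sntb2 the difference was 8.996 kb in SIT, -7.991 kb in the left arm and -3.0 kb in the right arm. For Sntg1 it was 18.04 kb, -12.86 kb and -19.56 kb, and for Sntg2 9.317 kb, -18.47 kb and -7.787 kb. For Dtna it was 0.282 kb, -15.73 kb and -31.39 kb, and for Dtnb 8.362 kb, -14.48 kb and -24.72 kb. The difference between arms was not tested, since each arm and condition is 1 pooled list. The exercised H4K8ac list as a whole was longer than the sedentary list by 33854 kb in SIT and shorter in the left and right arms (-40139 and -31584 kb). The part of list length was not tested. Per 1000000 bp of list, Sntg1 alone kept the opposite directions. In SIT the exercised and sedentary values were 275.4 and 275.6 bp for Sntg2, 475 and 816 bp for Dtna, and 273 and 292 bp for Dtnb. Sntb2 was higher in the exercised than in the sedentary right list (123 against 107 bp).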

How the results depend on the processing

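No paired analysis was possible because the lists pool the libraries of a group and carry no replicate number, so lists were paired by arm and condition alone. In the comparison of the marks the direction was kept in 59 alternatives over the 6 genes and turned in 1, Sntb1 over the gene body without a flank (0.981 kb, chosen after seeing the data), whose H3K27me3 lies upstream. None of the 16994 genes passed an adjusted p of 0.05, so that threshold says nothing about stability here. The exercise differences kept their direction in 55 alternatives and reversed in 13; the cause was not tested. The Sntb2 difference turned to 7.13 bp (per 1000000 bp of list), to 0.00267 kb over the gene body with 3 kb flanks and to 0.357 kb without them, and ranged from -5.50 to 2.998 kb when each arm was left out. With an arm left out, Sntg1 ranged from -16.2 to 2.59 kb, Sntg2 from -13.1 to 0.765 kb, and Sntb1 H3K27me3 from -8.899 to 24.3 kb. Promoter peaks alone gave Sntg2 0.0757 kb and Sntb1 H3K27me3 -0.251 kb, and the latter was -2.05 kb without distal intergenic peaks and -0.347 and -0.488 kb over the gene body with and without flanks. Sntb1 H4K8ac gave no value for promoter peaks or the widest 50%.

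Members lost for H4K8ac in SIT fell from 1 to 0 with promoter peaks, at least 2 peaks, the widest 50% and gene bodies with flanks, and 1 was gained in the widest 50%. In the left arm 3 were lost by promoter peaks (2 shared), 1 by at least 2 peaks and 1 in the widest 50%. In the right arm 4 were lost by promoter peaks (0 shared), 3 by at least 2 peaks (3 shared) and 0 with lists of equal length, and in the widest 50% the 1 lost was Dtnb in place of Sntb1. For H3K27me3 in SIT, the widest 50% gave 1 gained and 0 shared. Shares of all genes were taken only for the promoter and widest 50% counts given with them above. The other counts have no background and show only how far each count moved.

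For the 28 partner genes, where no share is given, the share of all genes in the same setting was not taken. Such counts have no background and show only how far they moved. Of these genes, gene bodies with flanks gave 7 gained for H4K8ac in SIT, 1 gained and 11 lost in the left arm and 3 gained in the right. At least 2 peaks gave 2 lost in SIT, and the widest 50% gave 1 lost in SIT and 3 lost in the right arm (41.2% of the genes then listed). Lists of equal length gave 3 gained and 3 lost in the left arm, and 3 gained and 2 lost in the right arm, where promoter peaks and the removal of distal peaks each gave 2 gained. For H3K27me3 in SIT, 2 were gained with at least 2 peaks, 2 with equal lists (1 lost) and 3 over gene bodies. In the left arm 1 was gained with promoter peaks, without distal peaks and over gene bodies, and 1 lost with equal lists. In the right arm 0 were gained with at least 2 peaks (2 lost) or the widest 50%, and 1 was lost with equal lists. With 50% reciprocal overlap, 19.4, 35.3 and 38.9% of exercised member H4K8ac peaks overlapped a sedentary peak in SIT, left and right, against 24.1, 43.0 and 39.2% of all exercised peaks. Without read counts, a missing peak does not show that the mark was absent.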
